A study of Mus musculus with 18 samples.

Results

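Olfactory receptor genes (Olfr symbols in mouse) are the genes described here, in thymic epithelial cells of mice with and without Kat7. Members were the Olfr genes with at least 30 reads summed over all 18 libraries, and 53 of the 1126 Olfr genes in the count table met that rule, with no need for the cap of 300. The members were chosen by this sum of measured counts, so it is given only as a description: Olfr957, Olfr325 and Olfr1358 had 30 reads each and lay just inside, while Olfr545 and Olfr1414 with 29 and Olfr155 and Olfr315 with 28 lay just outside. Of the other Olfr genes, 526 had no read in any library and 547 had 1 to 29 reads. Because the sum was taken over libraries of unequal depth, it gave least weight to the group that held 8.53% of all reads, wild-type mTEChi.

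Olfactory receptors are G protein-coupled receptors that bind odorants, and they form the largest gene family of the mouse. A mature olfactory sensory neuron transcribes a single receptor allele and signals through the G protein subunit Gnal, the adenylyl cyclase Adcy3 and a cyclic nucleotide-gated channel that contains Cnga2. Medullary thymic epithelial cells, above all those with high MHC class II and the transcriptional regulator AIRE, transcribe many genes that are otherwise restricted to particular tissues and present their products to developing T cells.

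The study sorted 3 epithelial subsets from C57BL/6 mouse thymus: cortical cells (cTEC), medullary cells with high MHC class II (mTEChi) and medullary cells with low MHC class II (mTEClo). Each subset came from 3 pools of wild-type mice (WT, pools 1 to 3) and 3 pools of Kat7 knockout mice (KO, pools 4 to 6), which gave 3 libraries in each of 6 groups. Kat7 encodes a histone acetyltransferase, and the labels used here do not name the deleted exons, the cells in which the deletion acts or the age of the mice. RNA was amplified as full-length cDNA and sequenced in 75-base read pairs, and the libraries held 3554089 to 20054360 reads assigned to genes. The number of mice in a pool is not given in the sources used here, so the spread between libraries is the spread between pools.

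Levels of single genes are CPM (counts per 1000000, scaled by TMM). For Kat7 itself, the 9 WT libraries ranged from 38.6 to 83.4 CPM, and knockout libraries from 0.765 to 4.16 CPM. Aire was at 1180 ± 75.7 CPM (SD, n = 3) in WT mTEChi and 676 ± 38.0 CPM in KO mTEChi, a log2 difference of -0.81 (SE 0.31, edgeR adjusted p = 0.05, at the threshold). It was at 17.3 to 49.8 CPM on average in the other 4 groups. The cTEC marker list summed to 1360 to 2440 CPM in WT cTEC, against 214 to 227 CPM in WT mTEClo. It also summed to 1160 to 1230 CPM in WT mTEChi. The mTEClo list summed to 4370 to 4680 CPM in WT mTEClo, 2940 to 3450 in WT cTEC and 628 to 736 in WT mTEChi. The mTEChi list summed to 9530 to 10100 CPM in WT mTEChi, 2450 to 2610 in WT mTEClo and 2690 to 2960 in WT cTEC. Of 10 markers of olfactory sensory neurons, none was at 0 in WT mTEChi, while Rtp1 and Rtp2, which carry receptors to the cell surface, were at 0 in WT mTEClo and WT cTEC. In bulk RNA, fewer cells of a type and less RNA per cell cannot be told apart.

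All 53 members were placed on the RefSeq annotation of GRCm38.p6. They lay on 13 chromosomes and in 22 of the 49 clusters that Olfr genes form when neighbours within 1 Mb are joined. Chromosomes 11 and 17 held 11 members each, chromosome 9 held 9, chromosome 7 held 5 and chromosome 6 held 4. The models of 35 members are 1 exon, and 1 member, Olfr1372-ps1, is annotated as a pseudogene.

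Odorant receptors share a conserved stretch at the inner end of the third transmembrane helix that reads DRY in single-letter amino acids, and 41 members had 1 match to it in GENCODE M21 transcripts. The coding stretches below, 45 bases each with the 3 DRY codons in capitals, are shown to set the members that the results turn on beside their neighbours in the genome: the chromosome 11 group (Olfr330, Olfr329, Olfr328, Olfr325), the chromosome 7 group (Olfr543, Olfr558, Olfr78), the chromosome 17 group (Olfr98, Olfr99), and Olfr461, Olfr1136, Olfr175 and Olfr1033, which lie apart from these groups.
Olfr330: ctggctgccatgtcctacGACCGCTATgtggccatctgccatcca
Olfr329: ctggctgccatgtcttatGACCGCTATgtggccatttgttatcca
Olfr328: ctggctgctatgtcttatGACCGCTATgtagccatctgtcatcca
Olfr325: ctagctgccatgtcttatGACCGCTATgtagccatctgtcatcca
Olfr543: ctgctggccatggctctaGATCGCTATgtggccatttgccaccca
Olfr558: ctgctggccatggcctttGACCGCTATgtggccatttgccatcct
Olfr78: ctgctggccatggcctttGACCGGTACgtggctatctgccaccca
Olfr98: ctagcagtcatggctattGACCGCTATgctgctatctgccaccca
Olfr99: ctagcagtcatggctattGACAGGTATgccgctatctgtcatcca
Olfr461: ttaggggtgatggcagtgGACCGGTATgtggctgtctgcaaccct
Olfr1136: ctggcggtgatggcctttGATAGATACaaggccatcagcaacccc
Olfr175: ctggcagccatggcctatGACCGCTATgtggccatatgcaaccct
Olfr1033: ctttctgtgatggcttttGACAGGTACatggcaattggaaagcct

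Several neighbours were alike in this stretch: Olfr325 and Olfr328 matched at 43 of 45 bases, Olfr328 and Olfr330 at 40, Olfr558 and Olfr543 at 39, and Olfr98 and Olfr99 at 40. Likeness was not particular to neighbours. Olfr175 and Olfr330, on different chromosomes, matched at 38 bases. Within clusters, Olfr543 and Olfr78 matched at 37, and Olfr1033 and Olfr1136 at 32. Reads from near-identical copies can be split or lost by the counting. The share of each member's 75-base windows that also occur in another gene's transcripts was therefore counted. It was 0 for 16 members and above 10% for 11 members. The highest shares were 47.2% for Olfr98, 42.2% for Olfr1358 and 30.5% for Olfr287, and the share was 13.2% for Olfr78 and 11.1% for Olfr330, so the values of these genes are less certain. Olfr110 and Olfr111 were identical over the whole 45-base stretch.

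WT mTEChi held the most olfactory receptor RNA. All 1126 genes together took 180 ± 21.1 RPM (reads per 1000000 library reads, not scaled by TMM; SD, n = 3) there, against 49.7 ± 3.82 in WT mTEClo and 37.0 ± 3.54 in WT cTEC. In KO libraries the values were 78.5 ± 8.43 in mTEChi, 59.2 ± 2.39 in mTEClo and 22.0 ± 2.08 in cTEC. The 3 WT mTEChi libraries (163 to 204) lay above the 3 KO mTEChi libraries (68.8 to 83.8), the KO mTEClo libraries (57.1 to 61.8) lay above the WT mTEClo libraries (45.5 to 53.0), and the KO cTEC libraries (19.8 to 24.0) lay below the WT cTEC libraries (33.6 to 40.7). Markers of other cells differed between the WT subsets too. The macrophage and dendritic cell list summed to 1560 to 1620 CPM in WT mTEChi, 137 to 155 CPM in WT mTEClo and 152 to 218 CPM in WT cTEC, with 9 and 8 of 9 tested markers higher in mTEChi. The thymocyte list summed to 65.1 to 82.3, 28.2 to 38.8 and 51.5 to 128 CPM, with 7 of 10 markers higher and 1 lower in mTEChi than in mTEClo, and 2 higher and 5 lower than in cTEC. All 6 tuft cell markers were lower in WT mTEChi than in either other subset. Their part in the receptor results was not tested.

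The 53 members and the 1073 other Olfr genes divided these reads differently. The members took 97.6 ± 9.12 RPM in WT mTEChi and 61.1 ± 5.35 in KO mTEChi. The other Olfr genes took 82.4 ± 12.5 in WT mTEChi and 17.4 ± 4.61 in KO mTEChi, and at most 5.48 in any WT mTEClo or WT cTEC library. Members therefore held 54.3% of the olfactory receptor reads in WT mTEChi, 78.0% in KO mTEChi and 86.3% to 91.4% in the other 4 groups. The KO to WT ratio in mTEChi was 0.626 for the members and 0.212 for the other Olfr genes. The rule used the same counts and gave WT mTEChi least weight, so a gene seen mainly there became a member less easily. Still, 23 members were highest in WT mTEChi by group mean. For this reason the shares and ratios are descriptions of the rule's outcome.

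**Figure D1:**
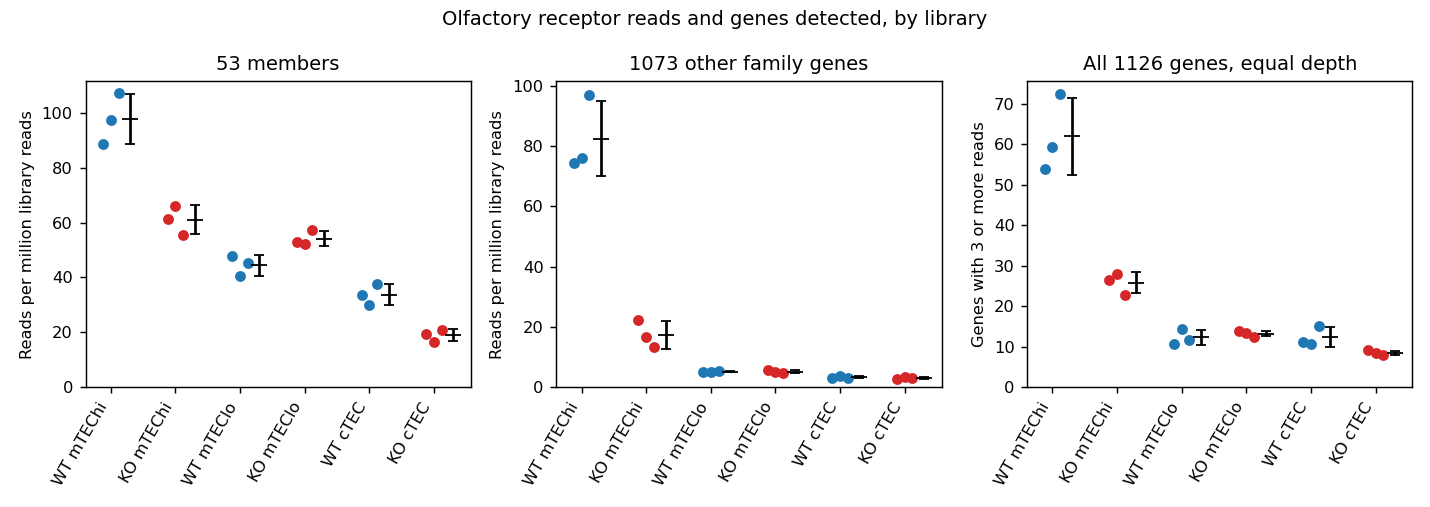
The panels show RPM on the 53 members (left), on the 1073 other Olfr genes (centre), and the number of Olfr genes with 3 or more reads after thinning each library to 3554089 reads (right); points are libraries, blue WT and red KO, with the mean and SD of 3 libraries in black. WT mTEChi is highest in each panel, and the 2 mTEChi groups do not overlap in any of them.

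The number of genes detected was also highest in WT mTEChi. With every library thinned to 3554089 reads, 61.9 ± 9.46 Olfr genes had 3 or more reads in WT mTEChi and 25.8 ± 2.59 in KO mTEChi. The numbers were 12.3 ± 1.93 in WT mTEClo and 13.3 ± 0.681 in KO mTEClo, and 12.3 ± 2.49 in WT cTEC and 8.47 ± 0.603 in KO cTEC. Without thinning they were 105, 56.7, 21.7, 40.3, 28.7 and 24.0 in the same order of groups. With thinning, the mTEChi libraries did not overlap between genotypes, whereas the mTEClo libraries did (WT 10.8 to 14.5, KO 12.5 to 13.8). Without thinning, the mTEChi libraries overlapped (WT 54 to 139, KO 38 to 75), and the mTEClo libraries lay apart (WT 20 to 23, KO 36 to 44). The unthinned numbers are not at equal depth: WT mTEClo libraries held 6565309 to 9815559 reads and KO mTEClo libraries 14411708 to 19356071.

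In every group, most receptors met at equal depth were met in 1 pool. At equal depth and a minimum of 1 read, 407 Olfr genes were seen in any of the 3 WT mTEChi libraries; 55.0% of them were seen in 1 library and 20.6% in all 3. In KO mTEChi 167 genes were seen, 60.5% of them in 1 library and 18.4% in all 3. The share in 1 library was 64.3% in WT mTEClo, 55.2% in KO mTEClo, 61.6% in WT cTEC and 54.7% in KO cTEC. A gene at about 1 read per library can be missed by sampling, so these shares do not separate sampling from differences between pools. Among the members, 11 had reads in all 18 libraries, among them Olfr461, Olfr98, Olfr99, Olfr109 and Olfr1033, and 19 had reads in fewer than 10. In WT mTEChi 43 members had reads in all 3 libraries and 1, Olfr293, was at 0 in all 3, while in KO cTEC 24 members were at 0 in all 3 libraries.

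By group mean, 23 members were highest in WT mTEChi, 11 in KO mTEChi, 6 each in WT mTEClo and KO mTEClo, 4 in WT cTEC and 3 in KO cTEC. Olfr461 (chr6:40544036-40544977, minus strand) took 28.1% of all member reads, and its level per kilobase of counted length, averaged over the 6 groups, was 12.6 CPM. The next levels per kilobase were 2.71 CPM for Olfr98, 2.37 CPM for Olfr99 and 2.07 CPM for Olfr1136, and the lowest was 0.105 CPM for Olfr293.

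**Figure D2:**
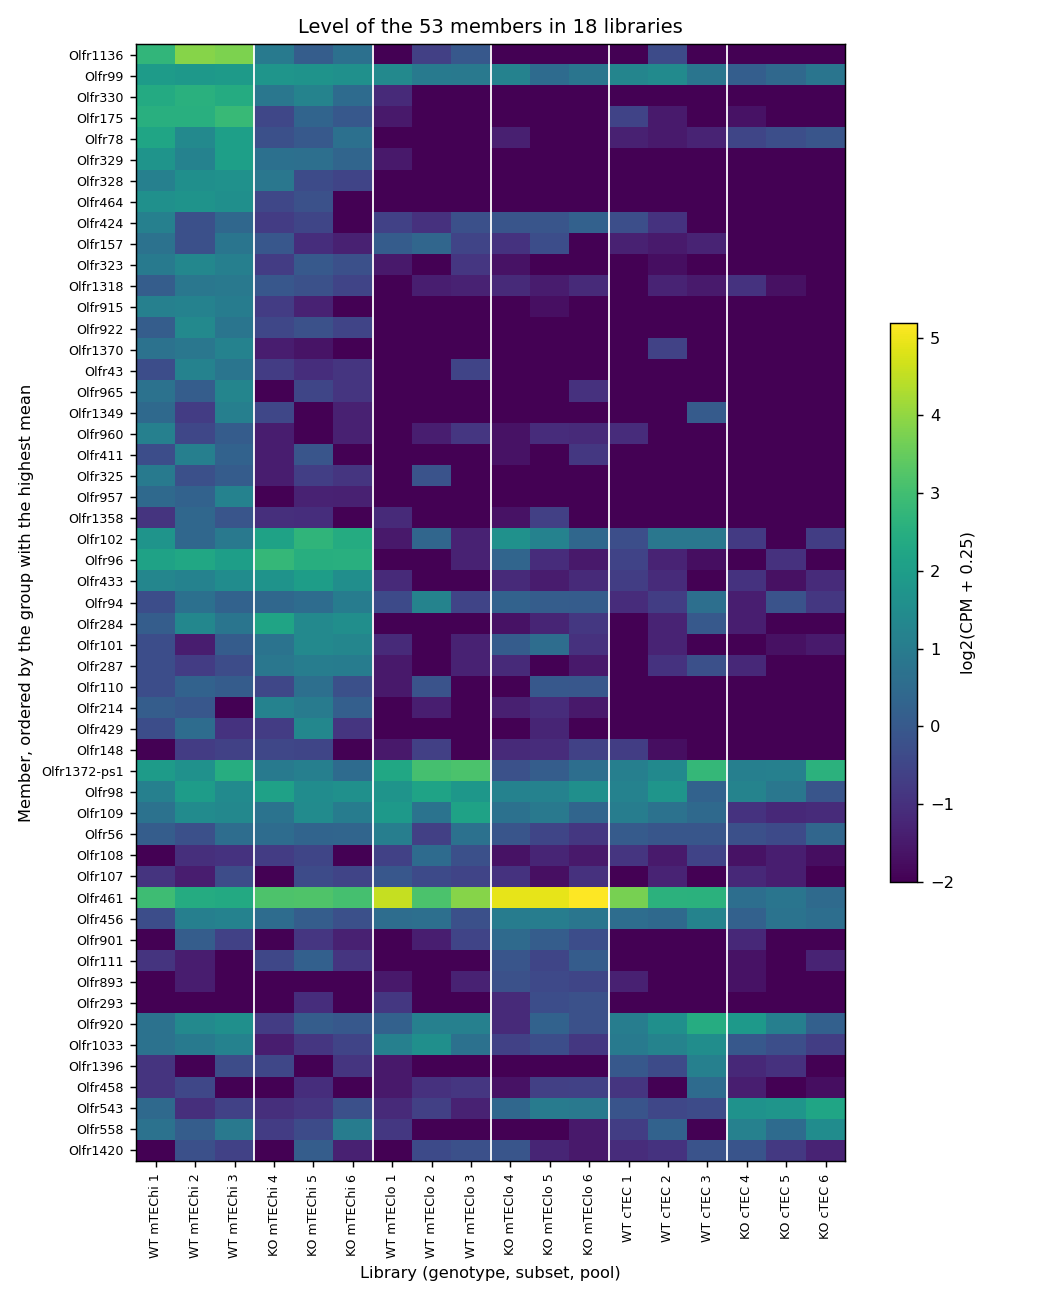
Level of each member as log2(CPM + 0.25), with 1 row per gene and 1 column per library, genes ordered by the group in which their mean is highest. The 23 members at the top are highest in WT mTEChi, and 4 of them (Olfr328, Olfr464, Olfr922 and Olfr957) have no read in any mTEClo or cTEC library; Olfr461 is bright in all groups but KO cTEC.

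Of the 53 members, 38 passed the filter on low counts and entered the edgeR quasi-likelihood test with all 19364 genes; the 15 others are described by their values. In WT, 21 of these 38 were higher in mTEChi than in mTEClo and 1 was lower at an adjusted p under 0.05, while 32.6% of all genes tested were higher and 26.7% lower. The median log2 difference was 3.27 for the members tested and 0.08 for all genes. A member that passed the filter through mTEChi alone had to differ, so these counts are descriptions.

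Of the 53 members, 13 had no read in any WT mTEClo library. Olfr78 was at 4.43, 2.38 and 3.93 CPM in WT mTEChi pools 1, 2 and 3 and at 0 in all WT mTEClo libraries, which makes it at least 27.1-fold higher (floor of 3 reads over the group). By the same bound, Olfr464 was at least 22.9-fold, Olfr328 at least 21.2-fold, Olfr915 at least 15.4-fold, Olfr922 at least 14.2-fold and Olfr284 at least 13.7-fold higher. Other members had a few reads in WT mTEClo: Olfr330 had 2, Olfr175, Olfr329 and Olfr96 had 1 each, and their WT mTEChi means were 5.28, 6.01, 3.00 and 4.19 CPM. Olfr1136 (chr2:87692881-87693947) was at 6.37, 14.6 and 13.3 CPM in WT mTEChi and 0, 0.389 and 0.744 CPM in WT mTEClo, a log2 difference of 5.03 (SE 0.92, edgeR adjusted p = 0.00021).

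Olfr461 went the other way. It lay at 7.48, 5.11 and 4.88 CPM in WT mTEChi and at 23.2, 8.68 and 14.4 CPM in WT mTEClo. The groups did not overlap, and the log2 difference of mTEChi against mTEClo was -1.46 (SE 0.34, edgeR adjusted p = 0.00102).

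Against cTEC in WT, 23 of the 38 members tested were higher in mTEChi, where 35.9% of all genes were higher and 28.5% lower. None was lower by edgeR, at an adjusted p under 0.05 or at an unadjusted p under 0.05, and DESeq2 also called none lower. Olfr330 (chr11:58528929-58534825) was at 4.98, 5.70 and 5.15 CPM in WT mTEChi and at 0 in the 3 WT cTEC libraries, at least 91.8-fold higher. The same bound was at least 50.3-fold for Olfr329, 48.5-fold for Olfr464 and 45.0-fold for Olfr328. In KO, 16 of 38 were higher in mTEChi than in mTEClo and 2 lower (Olfr461 and Olfr543). Over all genes these shares were 23% and 22.4%, and the same limit of the filter holds. In KO mTEChi, Olfr330 was at least 29.5-fold and Olfr329 at least 21.5-fold higher than in KO mTEClo.

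Several receptors were lower in KO than in WT mTEChi. The edgeR test called 10 of 38 members lower and 0 higher, where 19.3% of all genes were lower and 17.1% higher. At an unadjusted p under 0.05, 16 were lower and 2 higher, and DESeq2 also called none higher. The median log2 difference was -1.28 over the members tested and -0.11 over all genes, and over all 53 members the KO mean was lower for 35 and higher for 18. Here too a member that passed the filter only through WT mTEChi, where it is high, had to be lower in KO, so the count and median over the members tested are descriptions.

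Olfr175 (chr16:58823781-58826761) was at 5.54, 5.58 and 6.91 CPM in WT mTEChi and at 0.478, 0.987 and 0.736 CPM in KO mTEChi, a log2 difference of -2.99 (SE 0.70, edgeR adjusted p = 0.00332). Olfr1136 went from 6.37, 14.6 and 13.3 CPM to 1.67, 0.835 and 1.32 CPM, a log2 difference of -3.20 (SE 0.78, adjusted p = 0.00498). Neither gene's groups overlapped.
Olfr1033 (chr2:86020640-86044808) was at 1.38, 1.66 and 2.03 CPM in WT and 0.120, 0.304 and 0.442 CPM in KO, a log2 difference of -2.56 (SE 0.57, adjusted p = 0.00184). Olfr915, on chromosome 9, was at 1.94, 2.02 and 1.76 CPM in WT and at 0.359, 0.152 and 0 CPM in KO (log2 difference -3.37, adjusted p = 0.00785). Olfr1370, on chromosome 13, had 2 reads in the 3 KO libraries against 1.38, 1.54 and 2.03 CPM in WT, and Olfr957 had 3 reads against 1.11, 0.950 and 2.03 CPM, so no fold is given for them (adjusted p = 0.0117 and 0.0118). In each of these the WT and KO libraries lay apart.

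The other members called lower were Olfr464, Olfr78, Olfr330 and Olfr920. Olfr78, a receptor also known from the carotid body and from blood vessels, fell from 4.43, 2.38 and 3.93 CPM to 0.598, 0.759 and 1.32 CPM (log2 difference -2.00, SE 0.61, adjusted p = 0.0161). Olfr330 fell from 4.98, 5.70 and 5.15 CPM to 1.55, 2.05 and 1.18 CPM (log2 difference -1.70, SE 0.57, adjusted p = 0.0320). Olfr464 went from 2.77, 2.97 and 2.71 CPM to 0.478, 0.607 and 0 CPM, and Olfr920 from 1.38, 2.38 and 2.71 CPM to 0.359, 0.835 and 0.736 CPM (adjusted p = 0.0165 and 0.0397).

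These calls rest on low counts. Olfr1033, Olfr175, Olfr1136, Olfr915 and Olfr1370 were called with any of the 6 libraries left out, whereas Olfr330 lost its call each time, and 5 members were called without WT mTEChi pool 3 and 6 without KO mTEChi pool 4. DESeq2 called 5, without Olfr1136, Olfr1370, Olfr464, Olfr915 and Olfr957, while edgeR fitted on these 6 libraries alone called 13 lower and 4 higher (Olfr101, Olfr102, Olfr287 and Olfr461) of 24 tested.
The macrophage and dendritic cell marker list, led by Lyz2, also differed in mTEChi: it summed to 1560 to 1620 CPM in WT and 828 to 989 CPM in KO, with 6 of 9 tested markers lower and 1 higher. The tuft cell list summed to 261 to 363 CPM in WT and 919 to 1020 CPM in KO, with 6 of 6 higher. The mTEChi marker list went from 9530 to 10100 CPM in WT to 6390 to 6680 CPM in KO mTEChi, with 3 of 5 lower and 0 higher. The mTEClo list went from 628 to 736 CPM to 1290 to 1490 CPM, with 3 of 5 higher and 1 lower. Dclk1 is in both the mTEClo and the tuft cell list, so their shifts are not separate, here or in the other subsets. The cTEC list went from 1160 to 1230 CPM to 1760 to 2010 CPM, with 4 of 5 higher and 0 lower. The thymic epithelium list went from 2480 to 2730 CPM to 3980 to 4450 CPM, with 5 of 5 higher. The mural cell and fibroblast list went from 377 to 402 CPM to 645 to 746 CPM, with 3 of 10 higher and 2 lower. The endothelium list went from 53.4 to 57.3 CPM to 98.4 to 104 CPM, with 2 of 3 tested higher. The thymocyte list went from 65.1 to 82.3 CPM to 84.6 to 99.9 CPM, with 1 of 10 higher and 1 lower. The part of these differences, and of Aire, in the receptor results was not tested.

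**Figure D3:**
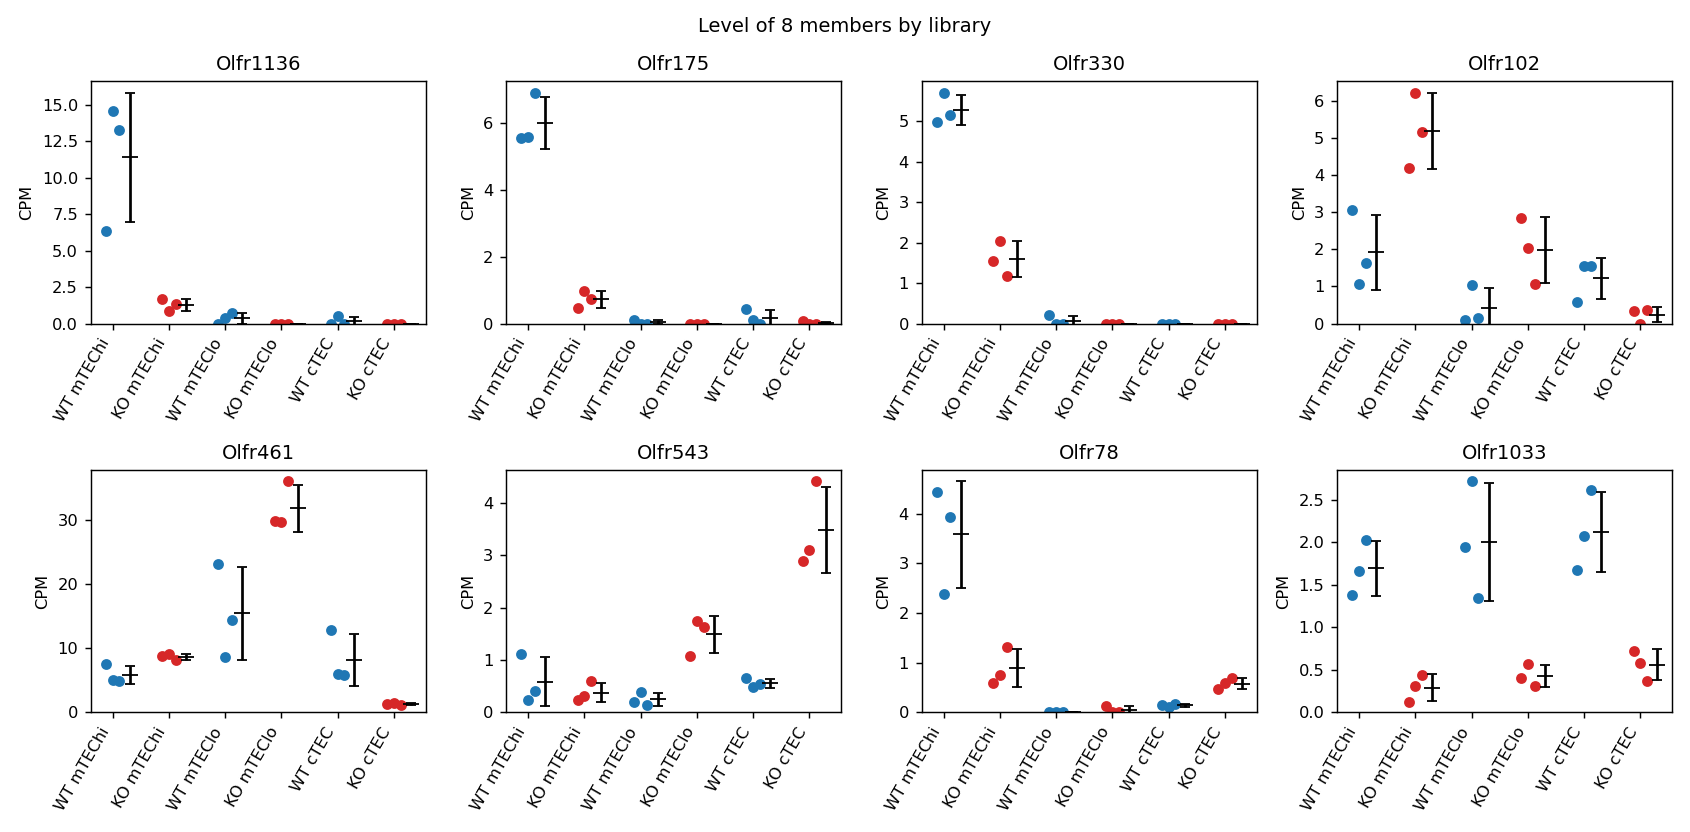
CPM of 8 members by library, blue WT and red KO, with the mean and SD of 3 libraries in black; each panel has its own linear axis from 0. Olfr1136, Olfr175, Olfr330 and Olfr78 are highest in WT mTEChi, Olfr461 in KO mTEClo and Olfr543 in KO cTEC, and Olfr1033 is lower in KO in each subset.

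In mTEClo, 3 of 38 members were higher in KO and 4 lower, where 18.9% of all genes were higher and 15.8% lower. The median log2 difference was 0.00 over the members tested and 0.01 over all genes. Olfr461 was at 23.2, 8.68 and 14.4 CPM in WT and 29.8, 29.7 and 36.1 CPM in KO, a log2 difference of 1.04 (SE 0.30, edgeR adjusted p = 0.0102), and it lost that call without WT pool 2. Olfr461 held 32.5% of the olfactory receptor reads in WT mTEClo and 54.8% in KO mTEClo; without it the KO to WT ratio of all olfactory receptor reads was 0.789 and not 1.19. The tuft cell list summed to 1520 to 2340 CPM in WT mTEClo and 3170 to 3430 CPM in KO mTEClo, with 5 of 6 markers higher. The cTEC list went from 214 to 227 CPM in WT to 717 to 967 CPM in KO, with 5 of 5 higher, and the thymocyte list from 28.2 to 38.8 CPM to 67.8 to 78.2 CPM, with 3 of 10 higher. The mTEClo list went from 4370 to 4680 CPM in WT to 3050 to 3240 CPM in KO, with 2 of 5 lower and 1 higher. The mTEChi list went from 2450 to 2610 CPM to 1480 to 1760 CPM, with 3 of 5 lower and 1 higher. The part of these lists in the mTEClo results was not tested.

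Olfr543 (chr7:102476773-102477902) rose in mTEClo from 0.204, 0.389 and 0.149 CPM to 1.08, 1.75 and 1.63 CPM (log2 difference 2.54, SE 0.58, adjusted p = 0.00201). Olfr102, on chromosome 17, went from 0.102, 1.04 and 0.149 CPM to 2.84, 2.03 and 1.07 CPM (log2 difference 2.20, SE 0.75, adjusted p = 0.0287), and this call was lost with 4 of the 6 libraries left out in turn. For both genes every KO library lay above every WT library.

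The pseudogene Olfr1372-ps1 (chr11:52154876-52157907) fell from 4.60, 8.16 and 8.63 CPM to 0.608, 0.845 and 1.27 CPM (log2 difference -2.93, SE 0.54, adjusted p = 0.000277). Olfr1033 fell from 1.94, 2.72 and 1.34 CPM to 0.406, 0.563 and 0.306 CPM (log2 difference -2.22, SE 0.49, adjusted p = 0.00136). Olfr1136 had 8 reads in the WT libraries and 0 in KO, at least 5.74-fold lower. Olfr109, on chromosome 17, was at 3.37, 1.42 and 4.16 CPM in WT and 1.35, 1.63 and 1.02 CPM in KO, with overlapping libraries (log2 difference -1.16, SE 0.43, adjusted p = 0.0425). The calls of Olfr543, Olfr1033 and Olfr1372-ps1 held with any of the 6 libraries left out.

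In cTEC, 3 of 38 members were higher in KO and 6 lower, where 22.3% of all genes were higher and 26.7% lower. The median log2 difference was -0.23 over the members tested and -0.02 over all genes. Olfr461 was at 12.8, 5.94 and 5.75 CPM in WT and 1.25, 1.49 and 1.16 CPM in KO, a log2 difference of -2.63 (SE 0.36, edgeR adjusted p = 5.42e-06). Olfr109 fell from 1.82, 1.38 and 1.12 CPM to 0.264, 0.194 and 0.210 CPM (log2 difference -2.63, SE 0.51, adjusted p = 0.000283), and Olfr1033 from 1.67, 2.07 and 2.61 CPM to 0.726, 0.583 and 0.368 CPM (log2 difference -1.92, SE 0.46, adjusted p = 0.00178). None of the 3 overlapped between genotypes.

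Olfr102 went from 0.582, 1.54 and 1.54 CPM to 0.330, 0 and 0.368 CPM (adjusted p = 0.0130), and its call was lost without KO pool 5. Olfr424, on chromosome 1, and Olfr157, on chromosome 4, were at 0 in all KO cTEC libraries and at least 4.19-fold and 2.25-fold lower than in WT; WT pool 3 also had no read of Olfr424. The call of Olfr157 was lost with each library left out.

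The 3 members that rose in KO cTEC lay in the same cluster on chromosome 7, which holds no other member. Olfr543 rose from 0.655, 0.477 and 0.532 CPM to 2.90, 3.11 and 4.42 CPM (log2 difference 2.64, SE 0.46, adjusted p = 0.000103). Olfr558 (chr7:102702323-102712054), also known from blood vessel smooth muscle, was at 0.364, 0.955 and 0 CPM in WT and 1.98, 1.17 and 2.58 CPM in KO (log2 difference 2.09, SE 0.84, adjusted p = 0.0462). Olfr78 (chr7:102740721-102759471) rose from 0.146, 0.106 and 0.160 CPM to 0.462, 0.583 and 0.684 CPM (log2 difference 2.01, SE 0.71, adjusted p = 0.0259). KO libraries lay above WT libraries for all 3. However, Olfr558 and Olfr78 lost their calls in 4 and 3 of the 6 fits that left out a cTEC library. Olfr558 also lost its call with DESeq2 and RLE factors. Neither was called in the fit on cTEC libraries alone, which 12 members entered and which called 1 higher. A member without a call in that fit may not have been tested there.

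Several other measures moved in the same libraries. Rrm1, a ribonucleotide reductase subunit whose gene ends 7002 bases from Olfr543, was at 49.7 ± 22.7 CPM in WT cTEC and 213 ± 31.8 CPM in KO cTEC (log2 difference 2.10, edgeR adjusted p = 5.05e-07), and it also rose in KO mTEClo, by 1.27 on the log2 scale (adjusted p = 0.000291). The thymocyte marker list summed to 51.5 to 128 CPM in WT cTEC and 234 to 377 CPM in KO cTEC, with 8 of 10 markers higher and 0 lower. The mural cell and fibroblast list summed to 1370 to 1520 and 2470 to 2620 CPM, but 7 of its 10 markers fell and 2, Dcn and Acta2, rose. The tuft cell list summed to 858 to 1520 CPM in WT cTEC and 175 to 205 CPM in KO cTEC, with 6 of 6 lower. The cTEC list went from 1360 to 2440 CPM to 3770 to 6680 CPM, with 5 of 5 higher. The mTEClo list went from 2940 to 3450 CPM to 1840 to 2050 CPM, with 3 of 5 lower and 0 higher. The mTEChi list overlapped (2690 to 2960 CPM in WT and 2210 to 3110 CPM in KO), with 3 of 5 lower and 0 higher. The macrophage and dendritic cell list went from 152 to 218 CPM to 37.5 to 47.1 CPM, with 5 of 9 tested lower and 0 higher. The part of these in the receptor results was not tested.

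The knockout effect itself differed between subsets for a few members. Between mTEChi and mTEClo, 1 of 38 differed, against 6.72% of all genes higher and 6.78% lower: Olfr543, with a difference of -2.99 on the log2 scale (SE 0.91, edgeR interaction adjusted p = 0.0322). That call was lost with 8 of 12 libraries left out in turn. Between mTEChi and cTEC, 4 members had a higher effect in mTEChi (Olfr461, Olfr102, Olfr109 and Olfr287) and 2 a lower one (Olfr78 and Olfr543), against 18.3% and 13.2% of all genes. With the mouse pool as a block, Olfr287 lost its call (adjusted p = 0.0603). Olfr461 differed by 3.26 (SE 0.50, adjusted p = 5.18e-05) and Olfr78 by -4.01 (SE 0.93, adjusted p = 0.00324). Between mTEClo and cTEC, 4 were higher and 1 lower, against 16.4% and 9.54%; Olfr461 differed by 3.67 (SE 0.46, adjusted p = 7.96e-06) and Olfr1372-ps1 by -2.77 (SE 0.72, adjusted p = 0.00724).
Olfr78 thus fell in KO mTEChi and rose in KO cTEC, and Olfr461 rose in KO mTEClo and fell in KO cTEC. Olfr1033 fell in all 3 subsets, and none of its 3 interaction tests passed the threshold.

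Levels were also summed over each of the 49 clusters, and the 6 described here were picked after their values had been seen. The 46 Olfr genes beside the MHC class I-like genes H2-M3 and H2-M2 on chromosome 17 (37.1 to 38.3 Mb) include 11 members. Their summed level was 20.2, 20.0 and 19.9 CPM in WT mTEChi and 25.3, 27.3 and 24.0 CPM in KO mTEChi, so that KO libraries lay above WT libraries. In mTEClo the sums were 11.4, 12.8 and 11.3 CPM in WT and 12.5, 10.9 and 9.58 CPM in KO, which overlap. In cTEC the order was the opposite, with 7.57, 9.50 and 6.92 CPM in WT and 4.03, 4.40 and 3.37 CPM in KO. The Olfr genes of this cluster that are no members summed to 2.87 CPM on average in WT mTEChi and 1.15 CPM in KO mTEChi. Within the group Olfr96 was at 4.15, 4.63 and 3.80 CPM in WT mTEChi and 6.69, 5.47 and 5.59 CPM in KO mTEChi, and Olfr99 at 3.60, 3.33 and 3.53 CPM and 3.11, 2.96 and 2.80 CPM; neither passed the test. Olfr102 was at 3.05, 1.07 and 1.63 CPM in WT and 4.18, 6.22 and 5.15 CPM in KO mTEChi, and Olfr101 at 0.554, 0.119 and 0.813 CPM and 1.43, 2.35 and 2.21 CPM, both higher in each KO library but called only in the fit on mTEChi libraries alone.

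Other clusters had lower sums in KO mTEChi. The chromosome 11 cluster at 58.5 to 59.6 Mb (24 genes, 5 members) summed to 17.7, 19.1 and 21.6 CPM in WT mTEChi and 6.10, 6.83 and 5.89 CPM in KO mTEChi. All 5 members, Olfr330, Olfr329, Olfr328, Olfr325 and Olfr323, had lower KO means there, of which Olfr330 passed the test. The chromosome 9 cluster at 37.7 to 40.2 Mb (99 genes, 9 members) summed to 20.8, 22.9 and 24.3 CPM and 3.82, 4.48 and 3.09 CPM. The largest cluster, on chromosome 2 (227 genes, 2 members, Olfr1033 and Olfr1136), summed to 17.2, 27.1 and 30.9 CPM and 4.42, 3.34 and 3.24 CPM. The chromosome 7 cluster of Olfr543, Olfr558 and Olfr78 (126 genes) summed to 14.1, 10.2 and 15.3 CPM and 3.11, 2.88 and 5.15 CPM in mTEChi. These sums were not tested, and in mTEChi no WT library overlapped a KO library in the 5 clusters named.

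**Figure D4:**
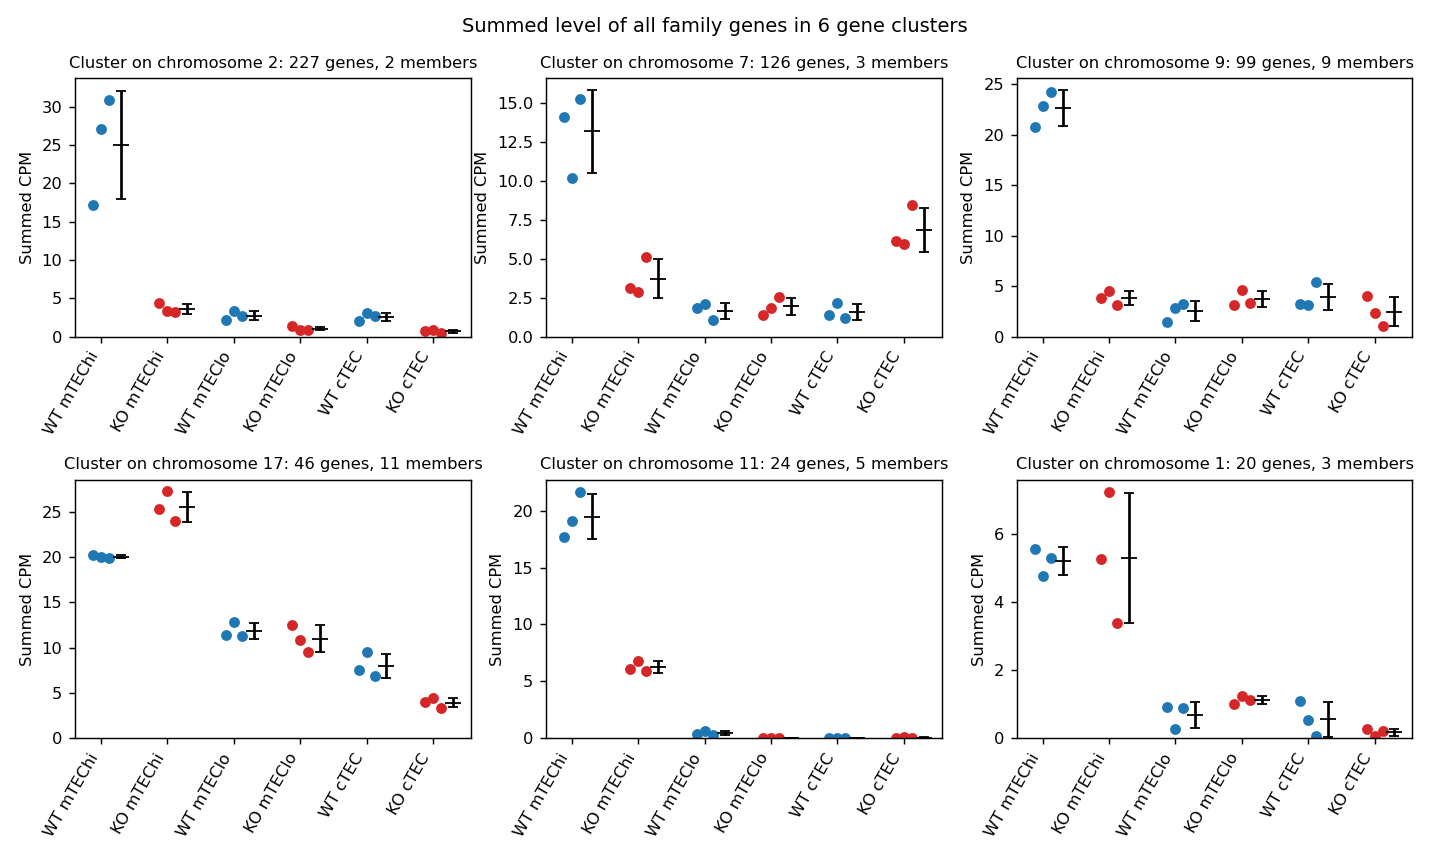
Summed CPM of all Olfr genes in 6 clusters, by library, blue WT and red KO, with mean and SD of 3 libraries in black; each panel has its own linear axis from 0. The chromosome 17 cluster is higher in KO mTEChi, the chromosome 2, 7, 9 and 11 clusters are lower, and the chromosome 1 cluster overlaps.

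A chromosome 1 cluster at 173.0 to 174.4 Mb (20 genes; Olfr433, Olfr429 and Olfr424) summed to 5.54, 4.75 and 5.29 CPM in WT mTEChi and 5.26, 7.21 and 3.39 CPM in KO mTEChi, which overlap. Olfr433 was at 2.22, 2.02 and 2.58 CPM in WT and 2.99, 3.72 and 2.65 CPM in KO. On chromosome 15, Olfr284 was at 0.831, 2.26 and 1.49 CPM and 4.30, 2.35 and 2.65 CPM, and Olfr287 at 0.554, 0.356 and 0.542 CPM and 1.55, 1.82 and 1.77 CPM. KO libraries lay above WT libraries for these 3 genes, and none passed the main test.

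Some members owed much of their count to 1 library. The largest share was 57.7% for Olfr429, in KO mTEChi pool 5 (2.28 CPM, against 0.359 and 0.294 CPM in the other KO mTEChi pools). Olfr957, Olfr1396, Olfr1136 and Olfr43 followed, and the median share over the 53 members was 27.3%, where an even spread over 18 libraries would give 5.56%. Olfr1396, which overlaps Olfr56 in the annotation, was at 0.728, 0.531 and 1.92 CPM in WT cTEC and 0.198, 0.259 and 0 CPM in KO cTEC. Olfr56 was at 0.478 to 1.19 CPM on average in the 6 groups and passed no KO test. Olfr110 was at 0 in all cTEC libraries, and Olfr111 was at 0 in WT mTEClo and at 0.676, 0.451 and 0.816 CPM in KO mTEClo, at least 5.27-fold higher.

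Receptors that were highest in KO mTEClo, other than Olfr461, were few and low. Olfr456, on chromosome 6, was at 1.76, 1.80 and 1.53 CPM in KO mTEClo and 1.23, 1.30 and 0.595 CPM in WT mTEClo. Its KO libraries lay above its WT libraries, but it passed no KO test. Olfr893, on chromosome 9, was at 0.608, 0.507 and 0.459 CPM in KO mTEClo and at 0 in KO mTEChi, at least 4.89-fold higher. Olfr901, its neighbour, was at 1.15, 0.845 and 0.561 CPM in KO mTEClo and 0, 0.130 and 0.446 CPM in WT mTEClo. Both sets of libraries lay apart, and Olfr901 did not pass the test while Olfr893 did not enter it. Olfr293 had reads in 5 libraries, with 0.203, 0.563 and 0.612 CPM in KO mTEClo.

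The other members passed no test between KO and WT: Olfr94, Olfr214, Olfr456, Olfr922, Olfr965, Olfr1318 and Olfr1349 were tested, and Olfr43, Olfr107, Olfr108, Olfr148, Olfr411, Olfr458, Olfr960, Olfr1358 and Olfr1420 did not enter the test. None of their group means exceeded 1.70 CPM. Olfr922 was at 1.57 ± 0.775 CPM in WT mTEChi and 0.509 ± 0.0870 CPM in KO mTEChi. Olfr214 had the opposite order, with 0.514 ± 0.449 CPM in WT mTEChi and 1.55 ± 0.598 CPM in KO mTEChi.

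Promoters were read for the 43 members with an entry in the RefSeq promoter table of GRCm38.p6. Many receptor models there begin at the coding sequence, so 3 members with spliced models are shown, chosen because Olfr330 and Olfr175 fell in KO mTEChi and Olfr558 rose in KO cTEC. Each line gives the 250 bases before the annotated start, and capitals mark a match to TATAAA or to CCCNNGGG, the core of an EBF site.
Olfr330: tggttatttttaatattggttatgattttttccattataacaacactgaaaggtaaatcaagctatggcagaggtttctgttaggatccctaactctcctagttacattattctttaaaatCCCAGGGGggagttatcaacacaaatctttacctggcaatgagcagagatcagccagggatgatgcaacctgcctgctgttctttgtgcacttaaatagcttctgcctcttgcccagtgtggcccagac
Olfr175: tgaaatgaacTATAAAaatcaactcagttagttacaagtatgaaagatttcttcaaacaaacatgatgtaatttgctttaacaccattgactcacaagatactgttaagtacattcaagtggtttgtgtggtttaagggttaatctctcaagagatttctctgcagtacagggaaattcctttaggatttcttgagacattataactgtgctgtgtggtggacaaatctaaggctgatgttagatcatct
Olfr558: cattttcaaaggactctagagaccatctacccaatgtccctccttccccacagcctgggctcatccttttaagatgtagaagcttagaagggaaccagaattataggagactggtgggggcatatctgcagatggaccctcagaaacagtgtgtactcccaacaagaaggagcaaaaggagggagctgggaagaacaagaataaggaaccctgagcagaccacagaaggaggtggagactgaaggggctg

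The windows are chr11:58534826-58535075 (minus strand), chr16:58826762-58827011 (minus strand) and chr7:102702073-102702322 (plus strand). On either strand, TATAAA occurred in 25.6% of the members' promoters, 39.1% of all Olfr promoters and 12.4% of the 32851 promoters in the table. TAATNA, the core of homeodomain sites, occurred in 58.1%, 64.0% and 24.3%, and CCCNNGGG in 16.3%, 2.75% and 11.8%. TAATNA can overlap TATAAA, and no match says only that these letters are not in the window.

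Genes that carry the receptor signal in the nose were measured from a list of 18. In mTEChi 3 were higher in KO and 7 lower, in mTEClo 5 and 4, and in cTEC 1 and 9. Over all genes tested, 17.1% were higher and 19.3% lower in mTEChi, 18.9% and 15.8% in mTEClo, and 22.3% and 26.7% in cTEC. The median log2 differences were -0.13, -0.09 and -0.56, against -0.11, 0.01 and -0.02 over all genes. Omp, the marker protein of mature olfactory neurons, was at 32.1 ± 3.98 CPM in WT mTEChi and 17.8 ± 3.79 CPM in KO mTEChi (log2 difference -0.85, edgeR adjusted p = 0.0368), and at 4.04 CPM or less on average in the other groups. The phosphodiesterase Pde1c fell by 1.36 in KO mTEChi and by 2.34 in KO mTEClo on the log2 scale (adjusted p = 4.94e-06 and 4.16e-09). Adcy3 fell in all 3 subsets, by 1.07, 1.71 and 1.07, whereas Gnal was at 14.2 ± 1.68 and 14.0 ± 1.51 CPM and Cnga2 at 19.4 ± 4.29 and 17.1 ± 0.933 CPM in WT and KO mTEChi, and neither passed the test there. The genes named as changed all fell. They leave out those that were higher in KO, 3 in mTEChi, 5 in mTEClo and 1 in cTEC.

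A second list of 18 genes acts in receptor choice and in moving receptors to the membrane, and 17 were tested. In KO against WT, 1 was higher and 3 lower in mTEChi, 2 and 5 in mTEClo, and 3 and 5 in cTEC, to be read against the same shares of all genes (17.1% and 19.3%, 18.9% and 15.8%, 22.3% and 26.7%). Atf5, a transcription factor induced by receptor expression in olfactory neurons, fell by 1.82 in mTEChi (SE 0.29, edgeR adjusted p = 8.94e-05), and Ebf1 fell by 1.70 (SE 0.32, adjusted p = 0.000425). Lhx2, a homeodomain factor needed for receptor choice, was at 1.27 ± 0.362 CPM in WT mTEChi and 0.297 ± 0.299 CPM in KO mTEChi, with an adjusted p of 0.104. Rtp1 was at 2.12 ± 0.165 and 0.671 ± 0.187 CPM (edgeR adjusted p = 0.0779). The genes of this list that were higher in KO, 1 in mTEChi, 2 in mTEClo and 3 in cTEC, are not named here.

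Other chemoreceptor families were summed in the same way. In mTEChi, the vomeronasal families Vmn1r and Vmn2r took 11.2 ± 3.70 and 18.2 ± 1.31 RPM in WT and 1.98 ± 0.464 and 4.02 ± 0.618 in KO. The trace amine-associated receptors (Taar) took 2.86 ± 0.289 and 1.47 ± 0.177. Taste receptors (Tas1r and Tas2r) went the other way, with 61.2 ± 12.7 in WT mTEChi and 157 ± 14.1 in KO mTEChi, and they were highest in mTEClo, at 515 ± 111 in WT and 586 ± 18.6 in KO. In cTEC the taste receptors took 246 ± 9.85 in WT and 24.5 ± 1.11 in KO. WT and KO libraries lay apart in each of these comparisons except for taste receptors in mTEClo, and no test was made of the sums.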

How the data were processed

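RNA-seq of 18 sorted libraries was analysed. The submitters' processing notes name featureCounts and mm10; the aligner, the strand setting and the handling of reads with several matches are not given in the sources used here. The authors deposited raw read counts per gene for 27179 genes, and the 18 per-library files were identical to the series table. The 18 pairs of libraries within a group were compared by a chi-square statistic of their counts, and each pair differed by more than sampling noise; pairs between groups were not compared.

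Counts were normalized by TMM and fitted with the edgeR 4.0.16 quasi-likelihood test (R 4.3.3, limma 3.58.1) on all 6 groups without covariates, after filterByExpr with a minimum count of 10. Contrasts compared groups, and interaction terms compared knockout effects; p-values were Benjamini-Hochberg adjusted over all 19364 genes tested, with a threshold of 0.05. DESeq2 1.42.0, RLE factors, no filter, only the groups compared, a block for the mouse pool and leaving out each library were alternatives. Each SE was back-calculated as the absolute log2 difference divided by the square root of the quasi-likelihood F statistic. For low counts it is approximate. Detection counts came from 10 draws at equal depth. Folds against a group at 0 used a floor of 3 reads over the group, which covers counting error only.

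Subsets of a genotype came from the same mouse pools, per the labels, so a pool pairs its 3 subsets; the correlation of their deviations was -0.000944 to 0.239. WT and KO pools are different mice and cannot be paired. The members and gene lists were chosen with earlier results of these data known. Genes named were the 15 members with the highest mean CPM, up to 5 called members in each direction of each contrast, members known outside the nose, those at the threshold, and the 5 with most of their reads in 1 library. Sequences and positions came from RefSeq (GRCm38.p6) and GENCODE M21.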

Additional observations from a re-analysis of the deposited data

Results flagged for a closer look

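The knockout effect differed between subsets by an edgeR interaction test for 9 members, and these results are listed with their log2 difference and adjusted p. Between mTEChi and mTEClo, Olfr543 differed by -2.99 (0.0322). Between mTEChi and cTEC the differences were -3.09 for Olfr543 (0.00741), -4.01 for Olfr78 (0.00324), 2.49 for Olfr109 (0.00862), 3.26 for Olfr461 (5.18e-05), 3.86 for Olfr102 (0.00521) and 3.94 for Olfr287 (0.0387). Between mTEClo and cTEC they were 3.67 for Olfr461 (7.96e-06), 4.53 for Olfr102 (0.00346), -2.77 for Olfr1372-ps1 (0.00724), 5.65 for Olfr424 (0.0228) and 6.98 for Olfr284 (0.0347). The values of Olfr424 and Olfr284 rest on a group at 0 (KO cTEC and WT mTEClo), so their size depends on the prior count. The 2 comparisons with cTEC were added after the data had been seen.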

How the results depend on the processing

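Over all alternatives, 67 of 101 called member results kept their call in each fit that tested them, and none changed direction. In the fits on only the groups compared, 67 results kept their call and 1 lost it. The rest of the 101 were not tested there. Leaving out 1 library gave 5 to 9 called members for KO against WT in mTEChi (10 with all), 5 to 7 in mTEClo (7), 7 to 11 in cTEC (9), 20 to 25 for mTEChi against mTEClo in WT (22), 18 to 20 in KO (18), 23 to 27 for mTEChi against cTEC (23), and 0 to 1, 5 to 8 and 3 to 5 for the 3 differences of the knockout effect (1, 6 and 5); the 3 came without KO cTEC pool 6. DESeq2 called 5 in mTEChi. With only the groups compared, the counts were 17 in mTEChi, 5 in cTEC and 13 for mTEChi against cTEC, of 24, 12 and 24 members tested in place of 38; the cause was not tested. There the 1 call for mTEChi minus mTEClo was Olfr1372-ps1, higher, in place of Olfr543; without the filter that difference gave 0 calls. With the replicate block for the mouse pool, counts were 21, 21 and 17 for the 3 subset comparisons and 1, 5 and 5 for the differences; it ended 5 member calls, each at an adjusted p of 0.0603 to 0.0695 (Olfr214, Olfr424, Olfr101, Olfr99 and Olfr287).

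The KO to WT ratio of olfactory receptor reads in mTEChi was 0.436 (0.416 to 0.467 without 1 library), 0.626 for members only and 0.212 for the other genes. In mTEClo it was 1.19 (1.14 to 1.23), 1.37 without pseudogenes and 1.01 without the 3 genes with most reads. The ratio reversed to 0.789 without Olfr461. For genes that are no members it was 0.993, with overlapping libraries (WT 5.05 to 5.48 RPM, KO 4.65 to 5.76 RPM). In cTEC it was 0.594 (0.568 to 0.626), 0.717 without the 3 genes, 0.904 for genes that are no members and 0.726 without Olfr461. The ratio of genes detected in mTEChi was 0.417 (0.392 to 0.455), 0.510 at 10 or more reads and 0.538 without thinning. In mTEClo it was 1.08 (1.01 to 1.18) and 1.86 without thinning. At 5 or more reads it was 0.884, with overlapping libraries (WT 6.8 to 9.1 genes, KO 5.9 to 7.3). At 10 or more reads it reversed to 0.473. In cTEC it was 0.686 (0.644 to 0.777), 0.835 at 1 or more reads, 0.500 at 10 and 0.837 without thinning. The cause of these reversals was not tested beyond the removal of Olfr461. Settings for genes that are no members and without Olfr461 were chosen after seeing the data. At these depths a member with a median of 74 reads over 18 libraries allows only large differences to be called.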
